A study of Mus musculus with 12 samples.

Results

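Heparan sulfate genes were followed in 12 RNA-seq libraries from 4 untreated mouse melanoma cell lines, with 3 libraries per line. The lines are MeVa2.1 and MeVa2.2, called parents here, and MeVa2.1.dOVA and MeVa2.2.dOVA, called dOVA lines; libraries are numbered by the replicate number in their labels. The labels give all 4 lines the tissue skin or subcutaneous tumour and the genotype WT. They do not spell out dOVA, and that each dOVA line derives from the line of the same number is taken from the names. The series title describes MeVa2.1.dOVA as immune-refractory. Whether a line's 3 libraries stem from separate cultures is not stated; the p-values therefore cover the spread among these libraries alone, and that spread may be technical. Each line is a single cell line, and differences between lines may be particular to those lines.

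The genes are 35 listed heparan sulfate core proteins, chain enzymes, sulfatases and heparanase, of 55471 gene identifiers in each count file, and all 35 were matched by symbol. The list was chosen with earlier results of these data in view. In particular it was selected on the measured fall of Hpse and Sulf1 in MeVa2.1.dOVA against MeVa2.1. For this reason the values of that comparison, counts past a threshold included, are a description from which nothing is read. MeVa2.2.dOVA against MeVa2.2, which shares no library with it, was tested. The spread used in that test was estimated over all 12 libraries, those of the comparison that chose the list included.

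Heparan sulfate is a long sulfated sugar chain attached to core proteins of the cell surface and the matrix. Xylosyltransferases and the other linker enzymes start the chain on a serine, EXT enzymes polymerise it, and NDST enzymes, the epimerase and the O-sulfotransferases modify it in domains. The sulfated domains bind growth factors, chemokines and matrix proteins. After synthesis, the extracellular sulfatases remove 6-O-sulfates from the finished chain, and heparanase cuts the chain into fragments. Heparanase has long been studied in melanoma for its part in matrix breakdown and invasion.

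Gene counts per library ranged from 16181816 to 35627069. Levels are given as CPM, the counts scaled to 1 common gene count total per library, and levels of different genes are compared only as CPM per kb of exon. One MeVa2.1.dOVA library (library 2) and one MeVa2.2 library (library 2) lay apart from the other replicates of their line in a principal component analysis, and counts without both are given below. The melanocyte markers were low: the 8 genes together reached 9.07 to 58.3 CPM, and Mitf, a melanocyte transcription factor, made up 8.84 to 24.1 CPM of it. Sox10 and Kit, defining genes of the lineage, were at most 1.12 and 0.0540 CPM in any library. The 8 summed to 10.5 to 58.3 CPM in MeVa2.2 and 9.07 to 16.6 CPM in MeVa2.2.dOVA, and the 5 tested had a median log2 fold change of -3.38 between these lines (-0.02 over all genes). Of these 5, 0 passed in edgeR, 3 had an unadjusted p under 0.05, and Pmel passed in DESeq2.

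Of the 35 genes, 29 passed the filter on low counts and were tested. The other 6 were under 1 CPM in every library: the glypicans Gpc2, Gpc3 and Gpc5 (highest 0.0761, 0.0592 and 0.592 CPM) and the 3-O-sulfotransferases Hs3st1, Hs3st3a1 and Hs3st3b1 (highest 0.0592, 0 and 0.486 CPM). Hs3st3a1 had no read in any of the 12 libraries. Reads that fit Hs3st3a1 and Hs3st3b1 equally are not counted for either gene, and 10.7% of the 50-base windows of the longest Hs3st3a1 transcript also occur in Hs3st3b1. Some genes passed the filter only through a line in which they were high, so counts and medians over the 29 describe those that passed.

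Per kb of exon, the 5 most abundant transcripts were core proteins. Averaged over the 12 libraries, Sdc2 stood at 80.7 CPM per kb, Gpc1 at 77.7, Sdc4 at 61.1, Gpc4 at 50.8 and Hspg2 at 45.0. The most abundant chain enzymes were the epimerase gene Glce at 41.7 and the N-deacetylase/N-sulfotransferase gene Ndst1 at 40.9 CPM per kb. The order differed between lines: Gpc1 led in MeVa2.1 at 129.7 CPM per kb, Sdc2 in MeVa2.1.dOVA at 107 and in MeVa2.2 at 76.8, and Gpc4 in MeVa2.2.dOVA at 67.3. In each line the mean ± SD ranges of the leading gene and the next overlapped. The order also depended on the length used: with the longest transcript as the length, Gpc1 (96.0 CPM per kb) stood above Sdc2 (80.7), and the enzyme genes Glce (58.7) and Ndst1 (52.3) took the places after Sdc4 (63.4). With coding length the first 3 were Sdc2, Sdc4 and Gpc1, followed by Glce and Hs2st1.

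**Figure D1:**
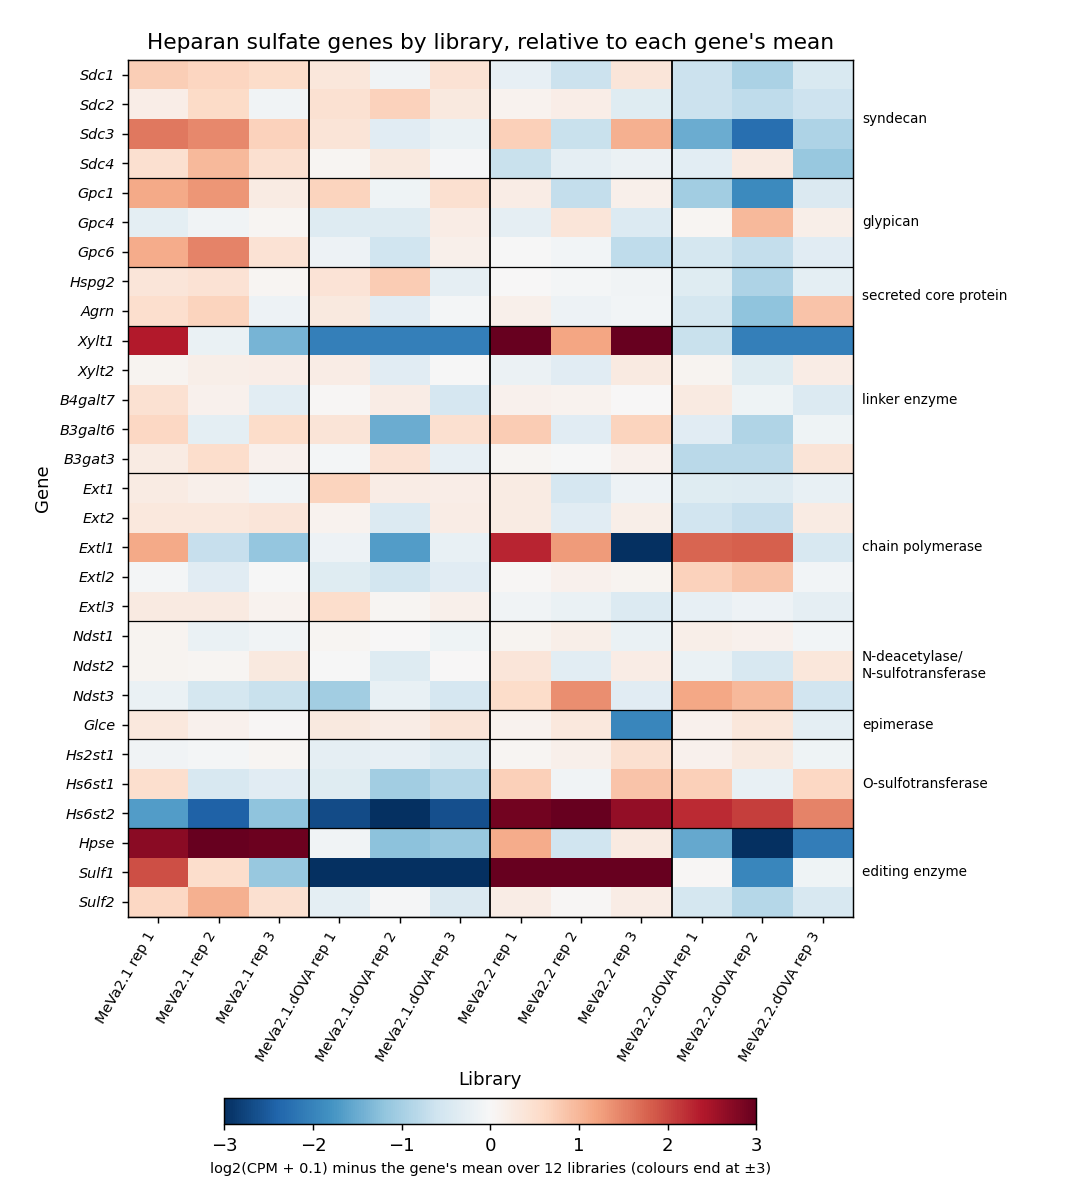
Each row is one of the 29 tested genes, grouped by role, and each column is a library. Colour is log2(CPM + 0.1) minus the gene's mean over the 12 libraries. Hpse was highest in the 3 MeVa2.1 libraries, Hs6st2 and Sulf1 in the 3 MeVa2.2 libraries, and the rows of Ndst1, Xylt2 and Extl3 are pale.

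Heparanase (Hpse), the sulfatase Sulf1 and syndecan-3 (Sdc3) fell in MeVa2.2.dOVA against MeVa2.2, and no gene of the list was called higher there. These 3 of 29 tested genes passed an adjusted p of 0.05 in edgeR's quasi-likelihood test, where 1.99% of all 13985 genes passed and 1.57% passed as lower. The median log2 fold change of the 29 was -0.24, against -0.02 over all genes, and 22 of the 29 were negative (75.9%, against 51.7% of all genes). Without both libraries that lay apart, left out after the data were seen, 5 of the 29 passed, with Sulf2 and Xylt1 added. Over all genes 693 passed in that fit, against 278 in the full fit. Leaving out 1 library gave 0 (without library 1 or 3 of MeVa2.2, or 1 or 2 of MeVa2.2.dOVA), 1 (library 1 of MeVa2.1 or 3 of MeVa2.1.dOVA) or otherwise 2 to 4, and the MeVa2.2 lines fitted alone gave 0. At an unadjusted p of 0.05, 7 of the 29 were under it in each of these 4 fits with 0. In the MeVa2.2 lines alone 9 were, and 9 in the full fit. The share of all genes under it is not given here, so nothing is read from these counts. DESeq2 on all lines called 6 of the 29 and 974 of all genes. In MeVa2.1.dOVA against MeVa2.1 the genes past the same threshold were Hpse and Sulf1, whose fall there chose the list, so that this count of 2 was fixed by the choice. For reference, 0.486% of all genes were past it and 0.386% as lower, and with the replicate number as a block 3 of the 29 (with Sulf2) and 2.6% of all genes. The median of the 29 in that comparison was -0.34, against 0.00 over all genes. These medians were the same with Xylt1 set to its lower bound where it had no reads. RNA was measured in bulk, so fewer cells of a type and less RNA per cell cannot be told apart in any of these differences.

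Beyond the test, separation of the libraries was counted: all 3 libraries of one line on one side of all 3 of the other, with a fitted change of at least 2-fold. In MeVa2.1.dOVA against MeVa2.1 this held for 7 of the 29 genes (Hpse, Sulf1, Sulf2, Sdc3, Gpc6, Hs6st2 and Xylt1, all lower) and for 5.46% of all genes. In MeVa2.2.dOVA against MeVa2.2 it held for 4 (Hpse, Sulf1, Sdc3 and Xylt1, all lower) and for 6.59% of all genes. Without the 2-fold condition, 6 of the 29 genes were lower in every dOVA library than in every library of the parent in both comparisons: Hpse, Sulf1, Sulf2, Sdc3, Xylt1 and Hs6st2. They are 20.7% of the 29, and 1.87% of all 13985 genes separated that way. Hpse and Sulf1 chose the list, and the count uses the comparison in which they did, so nothing is read from it. In the MeVa2.1 origin 2 of the genes separated narrowly at low levels. The nearest libraries of MeVa2.1 and MeVa2.1.dOVA were at 0.0561 and 0 CPM for Xylt1 and at 0.312 and 0.259 CPM for Hs6st2. By role the 6 genes are the 2 sulfatases, heparanase, a syndecan, a linker enzyme and a 6-O-sulfotransferase.

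The differences between dOVA lines and their parents were not shown to differ between the 2 origins. For the difference between the dOVA differences, 0 of the 29 genes passed in edgeR or in DESeq2, where 0.0858% of all genes passed in edgeR. At an unadjusted p of 0.05, 3 genes did: Sdc2 (0.93, SE 0.31 on the log2 scale, adjusted p = 0.379), Gpc6 (-0.97, SE 0.42, adjusted p = 0.558) and Extl2 (-0.74, SE 0.33, adjusted p = 0.584). The 95% interval for Hpse ran from -2.63 to 0.64 and for Sulf1 from -3.88 to 1.91, so a difference of several fold between the origins lies inside both.

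**Figure D2:**
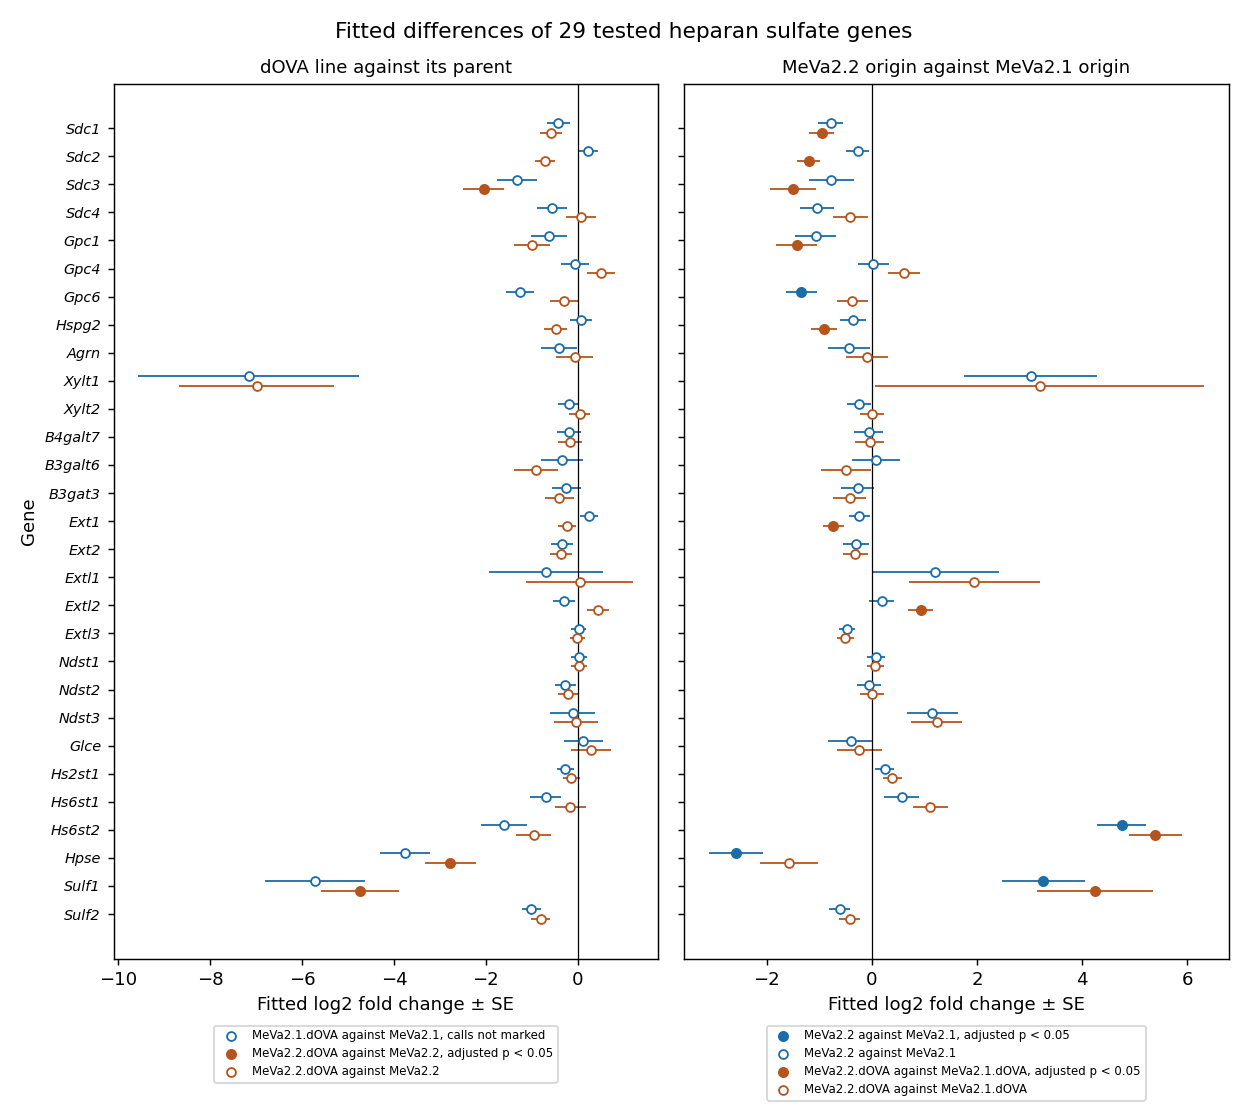
Points are fitted log2 fold changes with their SE for the 29 tested genes, in the 2 dOVA comparisons (left) and the 2 comparisons between origins (right). Filled points passed an adjusted p of 0.05, which is not marked for MeVa2.1.dOVA against MeVa2.1. Xylt1 had no reads in MeVa2.1.dOVA, so its fitted values there depend on the prior count.

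The origins were compared among the parents and among the dOVA lines. In MeVa2.2 against MeVa2.1, 4 of the 29 passed (Hs6st2 and Sulf1 higher, Hpse and Gpc6 lower), where 4.48% of all genes passed. It was 2 without both libraries that lay apart or without any 1 MeVa2.2 library, and without library 2 of MeVa2.1 it was 1. With the replicate block 6 of the 29 passed, with Sdc1 and Sdc4 added as lower, and 9.51% of all genes. Separation with at least 2-fold held for 6 of the 29 (Hs6st2 and Sulf1 higher, Hpse, Sdc4, Gpc1 and Gpc6 lower) and for 9.02% of all genes. In MeVa2.2.dOVA against MeVa2.1.dOVA, 9 of the 29 passed: Hs6st2, Sulf1 and Extl2 were higher and Sdc1, Sdc2, Sdc3, Gpc1, Hspg2 and Ext1 were lower, where 11.3% of all genes passed. Without 1 library of MeVa2.1.dOVA it was 2, 5 and 3 in library order, without library 1 or 2 of MeVa2.2.dOVA 2 and 4, and without both libraries that lay apart 6. With the block 12 of the 29 passed (adding Hpse and Extl3 as lower and Hs6st1 as higher), and 22% of all genes. Separation with at least 2-fold held for 7 of the 29 (Hs6st2, Sulf1 and Hs6st1 higher, Hpse, Sdc2, Sdc3 and Gpc1 lower) and for 13.2% of all genes. Both comparisons share libraries with MeVa2.1.dOVA against MeVa2.1, so the values of Hpse and Sulf1 in them are a description.

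Hpse encodes heparanase, the endoglycosidase that cuts heparan sulfate chains. It was at 22.4, 30.2 and 26.5 CPM in the MeVa2.1 libraries and at 3.09, 1.38 and 1.47 CPM in MeVa2.1.dOVA. In MeVa2.2 it was at 7.34, 2.16 and 4.03 CPM, and in MeVa2.2.dOVA at 1.08, 0.213 and 0.712 CPM. Each dOVA line lay wholly under its parent, and MeVa2.1 lay above all other libraries. The fitted log2 difference was -3.76 (SE 0.55) in MeVa2.1.dOVA against MeVa2.1, the comparison that chose the gene. In MeVa2.2.dOVA against MeVa2.2 Hpse fell by 2.77 on the log2 scale (SE 0.56, 6.82-fold, edgeR adjusted p = 0.0355). That call ended without any 1 of the 3 MeVa2.1 libraries, library 3 of MeVa2.1.dOVA, library 1 or 3 of MeVa2.2, or any 1 of the 3 MeVa2.2.dOVA libraries (adjusted p from 0.0503 to 0.12), and in a fit to the MeVa2.2 lines alone (0.176). Without both libraries that lay apart it was -3.10 (adjusted p = 0.0167).

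Sulf1 encodes an extracellular sulfatase that removes 6-O-sulfates from heparan sulfate. It was at 8.48, 3.18 and 0.926 CPM in MeVa2.1 and at 0.185, 0 and 0.0576 CPM in MeVa2.1.dOVA, which together held 5 reads of the gene. MeVa2.2 had 48.8, 17.8 and 55.3 CPM, and MeVa2.2.dOVA 2.21, 0.480 and 1.96 CPM. Its order over the lines differed from that of Hpse: MeVa2.2 stood above all other libraries, and within both origins the dOVA libraries lay under the parent. The fitted log2 difference in MeVa2.1.dOVA against MeVa2.1 was -5.72 (SE 1.09). In MeVa2.2.dOVA against MeVa2.2 Sulf1 fell by 4.74 on the log2 scale (SE 0.85, 26.6-fold, edgeR adjusted p = 0.0222). That call ended without library 1 or 3 of MeVa2.2 or library 1 or 2 of MeVa2.2.dOVA (adjusted p from 0.0624 to 0.102) and in a fit to the MeVa2.2 lines alone (0.0768). Without both libraries that lay apart it was -5.09 (adjusted p = 0.015).

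Sulf2, the second 6-O-sulfatase, was the more abundant of the pair in every line. Sulf1 made up 8.32% of the 2 sulfatases' CPM per kb in MeVa2.2 and 0.655%, 0.0262% and 0.585% in MeVa2.1, MeVa2.1.dOVA and MeVa2.2.dOVA. Sulf2 was at 309, 424 and 281 CPM in MeVa2.1, 164, 196 and 150 CPM in MeVa2.1.dOVA, 234, 207 and 235 CPM in MeVa2.2 and 139, 111 and 143 CPM in MeVa2.2.dOVA. Both dOVA lines lay wholly under their parents. The log2 difference was -1.01 (SE 0.20) in MeVa2.1.dOVA against MeVa2.1 and -0.81 (SE 0.20, edgeR adjusted p = 0.0603) in MeVa2.2.dOVA against MeVa2.2. The latter did not pass the threshold, though it did without library 2 of MeVa2.1 (0.0463) and without both libraries that lay apart (0.0474). Sulf2 overlaps Ncoa3 on the other strand, and whether the counting used strand is not given in the sources used here.

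**Figure D3:**
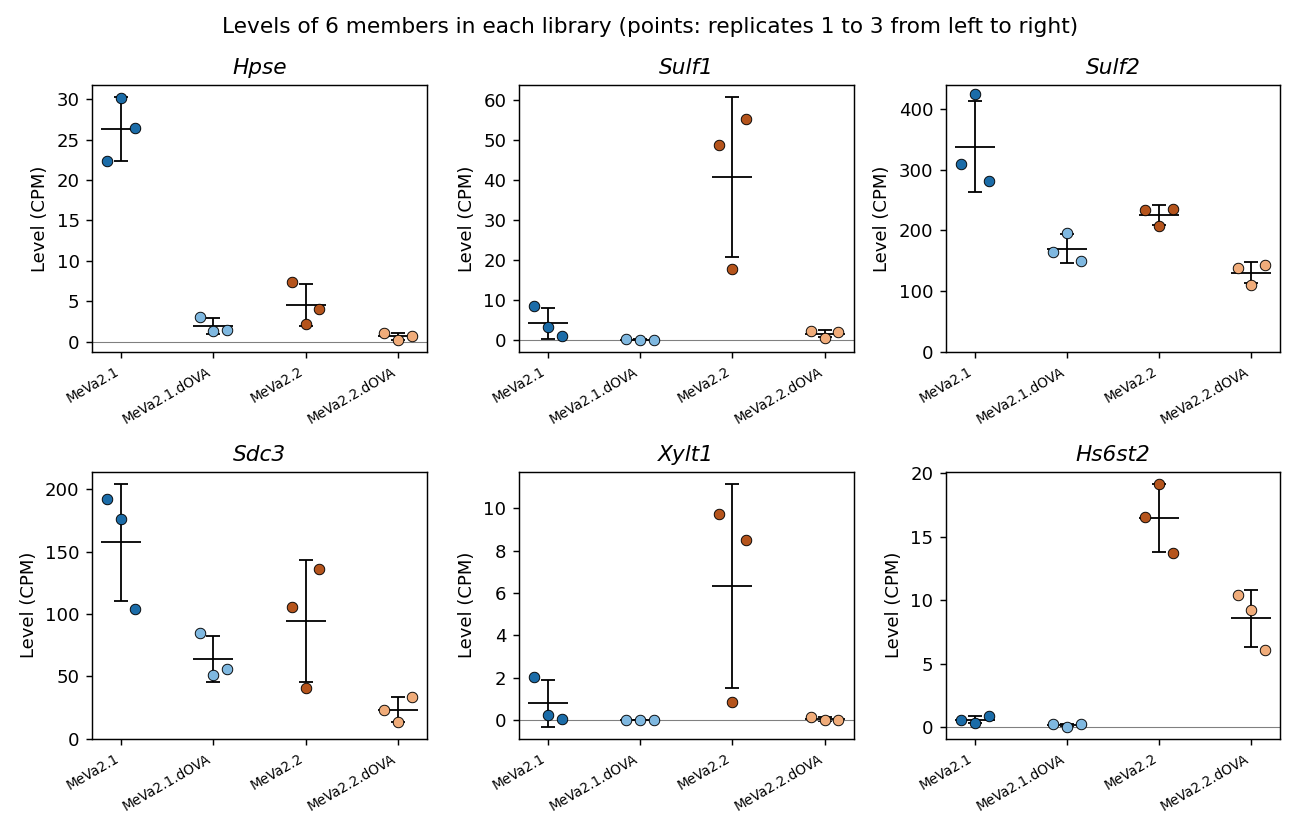
Points are the CPM of each library for 6 genes, in replicate order from left to right within a line, and bars are the mean with SD over 3 libraries. The 6 are the genes of the list with all 3 dOVA libraries under all 3 parent libraries in both origins. Of all tested genes 1.87% separated that way. In the MeVa2.1 origin Xylt1 and Hs6st2 separate narrowly at low levels. The vertical scale differs between genes.

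Sdc3 encodes syndecan-3, a transmembrane core protein. It was at 192, 176 and 104 CPM in MeVa2.1 and at 85.1, 51.2 and 56.0 CPM in MeVa2.1.dOVA. MeVa2.2 had 106, 40.6 and 136 CPM and MeVa2.2.dOVA 23.0, 13.4 and 33.8 CPM. The dOVA libraries were again the lower ones in both origins, and the MeVa2.2 library that lay apart was the lowest of its line. The log2 difference was -1.32 (SE 0.43) in MeVa2.1.dOVA against MeVa2.1, and in MeVa2.2.dOVA against MeVa2.2 Sdc3 fell by 2.05 (SE 0.44, edgeR adjusted p = 0.0449). That call ended without library 1 or 2 of MeVa2.1, any 1 of the 3 MeVa2.1.dOVA libraries, library 1 or 3 of MeVa2.2, or library 1 or 2 of MeVa2.2.dOVA (adjusted p from 0.0532 to 0.17), and in a fit to the MeVa2.2 lines alone (0.172). Without both libraries that lay apart it was -2.41 (adjusted p = 0.0135). Sdc3 overlaps the predicted genes Gm12970 and Gm26716 on the other strand.

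Start-site sequence is shown for Hpse and Sdc3, of the genes that fell in MeVa2.2.dOVA those with a window in the RefSeq table (GRCm38.p6), which held 27 of the 35 genes in 32 windows. The 8 without one are Gpc1, Gpc6, Sdc2, Xylt1, Ext1, Extl3, Ndst1 and Sulf1. Each line gives the 250 bases before the annotated start, 5′ to 3′ on the gene's strand, with CpG pairs in capitals. Hpse lies on the minus strand of chromosome 5 (gene 100679484 to 100719716, window chr5:100719717-100719966), and Sdc3 on the plus strand of chromosome 4 (gene 130792537 to 130826319, window chr4:130792287-130792536).
Hpse: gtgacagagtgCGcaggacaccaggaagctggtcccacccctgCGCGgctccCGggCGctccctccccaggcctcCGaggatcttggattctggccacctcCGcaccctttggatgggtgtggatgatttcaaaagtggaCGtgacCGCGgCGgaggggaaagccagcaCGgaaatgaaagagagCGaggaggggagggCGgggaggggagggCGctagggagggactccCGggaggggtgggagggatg
Sdc3: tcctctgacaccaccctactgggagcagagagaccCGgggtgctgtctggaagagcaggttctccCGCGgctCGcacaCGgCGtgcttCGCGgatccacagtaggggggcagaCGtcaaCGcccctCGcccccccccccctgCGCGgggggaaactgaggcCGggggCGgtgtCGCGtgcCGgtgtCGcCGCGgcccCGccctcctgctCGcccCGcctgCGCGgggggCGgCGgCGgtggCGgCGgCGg
The Hpse stretch held 16 CpG pairs and 66.8% G or C, and the Sdc3 stretch 32 CpG pairs and 76.4%. Over whole windows of 250 bases before to 50 after the start, the 32 windows of the listed genes had a median of 22.5 CpG pairs, against 7 over all 32851 windows in the table. The GC box GGGCGG, searched on both strands, occurred in 65.6% of the listed genes' windows and in 35.7% of all windows. Within the printed stretches it occurred 1 time for Hpse and 3 times for Sdc3. No methylation or factor binding was measured, so these are features of the reference sequence only.

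Among the other syndecans, likewise transmembrane core proteins, the main fit had calls only between the dOVA lines, for Sdc1 and Sdc2. Sdc2, which had the highest line mean of the syndecans per kb in every line, with Sdc4 within its SD in MeVa2.1 and MeVa2.2.dOVA, was at 312, 399 and 252 CPM in MeVa2.1 and at 369, 436 and 329 CPM in MeVa2.1.dOVA. It was at 291, 311 and 210 CPM in MeVa2.2 and at 172, 159 and 175 CPM in MeVa2.2.dOVA. MeVa2.2.dOVA lay under every other library, while MeVa2.1.dOVA overlapped its parent. Sdc2 was lower in MeVa2.2.dOVA than in MeVa2.1.dOVA by 1.20 on the log2 scale (-1.20, SE 0.22, edgeR adjusted p = 0.00572), a call kept when each of the 12 libraries was left out in turn (highest adjusted p 0.0237). Against its own parent MeVa2.2.dOVA differed by -0.71 (SE 0.22, edgeR adjusted p = 0.133). That difference passed with the replicate block (edgeR adjusted p = 0.027) and in DESeq2 (adjusted p = 0.0497). MeVa2.1.dOVA differed by 0.22 (SE 0.22) against its own parent. The parents overlapped and differed by -0.27 (SE 0.22, edgeR adjusted p = 0.596).

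Sdc1 was at 113, 106 and 99.4 CPM in MeVa2.1, 85.8, 63.0 and 91.4 CPM in MeVa2.1.dOVA, 56.8, 43.5 and 87.7 CPM in MeVa2.2 and 43.1, 35.2 and 49.2 CPM in MeVa2.2.dOVA. Both MeVa2.2 lines lay under their MeVa2.1 counterparts. The difference passed between the dOVA lines (-0.95, SE 0.24, edgeR adjusted p = 0.0267) and, with the replicate block, between the parents (-0.83, adjusted p = 0.0254; -0.78, SE 0.24, 0.102 without it). The first call ended without library 1 or 3 of MeVa2.1.dOVA or library 1 or 2 of MeVa2.2.dOVA (adjusted p from 0.0916 to 0.122). The second, without the block, passed without library 3 of MeVa2.2 (0.0203).

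For Sdc3, MeVa2.2.dOVA was lower than MeVa2.1.dOVA (-1.50, SE 0.44, edgeR adjusted p = 0.0477). That call ended without library 1 or 2 of MeVa2.1, any 1 of the MeVa2.1.dOVA libraries, library 1 of MeVa2.2 or library 1 or 2 of MeVa2.2.dOVA (adjusted p from 0.0626 to 0.18). Sdc4 was at 202, 287 and 204 CPM in MeVa2.1, 153, 180 and 143 CPM in MeVa2.1.dOVA, 92.0, 121 and 129 CPM in MeVa2.2 and 117, 177 and 66.4 CPM in MeVa2.2.dOVA. MeVa2.2 lay wholly under MeVa2.1, while the 2 dOVA lines overlapped. The parents differed by -1.04 (SE 0.33, adjusted p = 0.116), which passed with the replicate block (0.0348) and without library 3 of MeVa2.2.dOVA (0.0304).

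Glypicans are core proteins held in the membrane by a lipid anchor, and Gpc1, Gpc4 and Gpc6 carried nearly all of their reads. Gpc1 was at 752, 852 and 404 CPM in MeVa2.1, 539, 311 and 470 CPM in MeVa2.1.dOVA, 395, 206 and 376 CPM in MeVa2.2 and 165, 89.7 and 252 CPM in MeVa2.2.dOVA. The 2 origins did not overlap within the parents or within the dOVA lines. Gpc1 was lower in MeVa2.2.dOVA than in MeVa2.1.dOVA (-1.43, SE 0.39, edgeR adjusted p = 0.0378), and MeVa2.2 differed from MeVa2.1 by -1.07 (SE 0.39, adjusted p = 0.168). The call ended without library 1 of MeVa2.1, library 1 or 3 of MeVa2.1.dOVA, library 1 of MeVa2.2 or library 1 or 2 of MeVa2.2.dOVA (adjusted p from 0.0539 to 0.139). Gpc1 overlaps Ankmy1 on the other strand.

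Gpc6 was at 97.3, 126 and 60.5 CPM in MeVa2.1, 40.7, 29.5 and 49.9 CPM in MeVa2.1.dOVA, 44.6, 42.9 and 26.6 CPM in MeVa2.2 and 31.3, 27.6 and 35.9 CPM in MeVa2.2.dOVA. MeVa2.1 lay above all libraries of the other 3 lines. The log2 difference was -1.26 (SE 0.30) in MeVa2.1.dOVA against MeVa2.1 and -0.30 (SE 0.30, edgeR adjusted p = 0.652) in MeVa2.2.dOVA against MeVa2.2. MeVa2.2 was lower than MeVa2.1 (-1.34, SE 0.30, adjusted p = 0.0303), a call that ended without library 1 or 2 of MeVa2.1 or any 1 of the MeVa2.2 libraries (adjusted p from 0.0619 to 0.137) and without both libraries that lay apart (0.0526).

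Gpc4 was measured at similar levels in 3 lines, with line means of 120, 116 and 124 CPM in MeVa2.1, MeVa2.1.dOVA and MeVa2.2, and at 134, 256 and 146 CPM in the MeVa2.2.dOVA libraries. It did not pass in any comparison. The make-up of the glypicans nonetheless differed: Gpc1 held 67.0% ± 9.01 (SD, n = 3) of their CPM per kb in MeVa2.1 and 62.6% ± 6.80 in its dOVA line. In MeVa2.2 it held 54.0% ± 15.1 and in its dOVA line 31.9% ± 15.5. Gpc4 held 25.4% ± 9.70, 32.8% ± 6.53, 40.8% ± 14.2 and 63.3% ± 16.4 of it in the same order. In the MeVa2.2.dOVA libraries the Gpc4 share ran from 50.2% to 81.6% and in MeVa2.2 from 32.5% to 57.2%, so the ranges overlapped. These shares are a description, with no test.

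**Figure D4:**
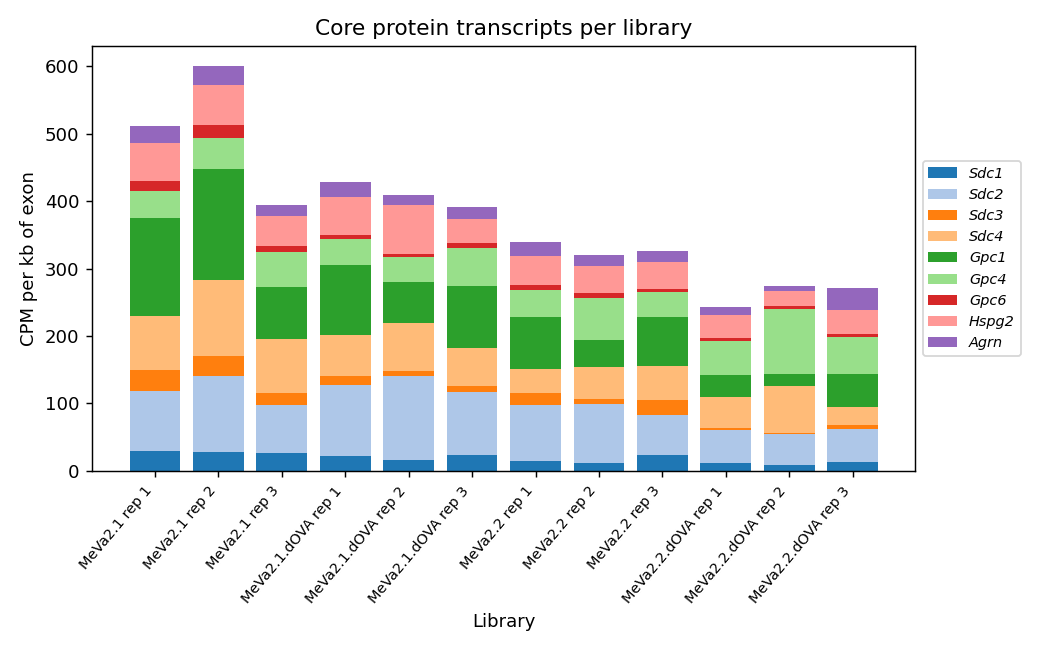
Bars stack the CPM per kb of exon of the 9 tested core proteins in each library. The stacks of MeVa2.2.dOVA are the shortest, and Gpc1 makes up 6.33% to 18% of them against 12.5% to 22.6% in MeVa2.2, while library 2 of MeVa2.1 has the tallest stack.

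The core proteins together stood at 502 ± 103 CPM per kb (SD, n = 3) in MeVa2.1 and 410 ± 18.6 in its dOVA line. In MeVa2.2 they stood at 329 ± 9.57 and in its dOVA line at 263 ± 17.1. The library ranges of MeVa2.1 (394 to 600) and MeVa2.1.dOVA (391 to 429) overlapped, and those of MeVa2.2 (320 to 339) and MeVa2.2.dOVA (243 to 275) did not overlap with each other or with either.

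Of the 2 core proteins secreted into the matrix, perlecan (Hspg2) was at 790, 827 and 640 CPM in MeVa2.1, 817, 1049 and 513 CPM in MeVa2.1.dOVA, 623, 588 and 569 CPM in MeVa2.2 and 480, 325 and 506 CPM in MeVa2.2.dOVA. MeVa2.2.dOVA lay under every other library. It was lower than MeVa2.1.dOVA (-0.91, SE 0.25, edgeR adjusted p = 0.0412), a call that ended without library 1 or 2 of MeVa2.1, library 1 or 2 of MeVa2.1.dOVA, library 1 of MeVa2.2 or library 1 or 2 of MeVa2.2.dOVA (adjusted p from 0.0534 to 0.158) and without both libraries that lay apart (0.122). Agrin (Agrn) ranged from 72.4 to 300.1 CPM, both within MeVa2.2.dOVA, and passed in no comparison.

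Among the 5 linker enzymes, which build the tetrasaccharide between core protein and chain, the 2 xylosyltransferases that start the chain differed in pattern. Xylt1 was at 2.05, 0.260 and 0.0561 CPM in MeVa2.1 and had no read in the 3 MeVa2.1.dOVA libraries. It was at 9.71, 0.843 and 8.48 CPM in MeVa2.2 and at 0.162, 0 and 0 CPM in MeVa2.2.dOVA. The parents varied widely among replicates, and the dOVA libraries were at or near 0. Set against a floor of 3 reads over the line, 0 against 45 reads made Xylt1 at least 14-fold lower in MeVa2.1.dOVA. In MeVa2.2.dOVA 3 reads stood against 403, a ratio of 153-fold lower with a 95% exact counting interval from 52.1 to 747, which covers counting error only. The edgeR adjusted p for the latter was 0.0753, and it passed without library 2 of MeVa2.2 (0.0393) and without both libraries that lay apart (0.0322).

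Xylt2, which catalyses the same first step, had line means between 13.8 and 16.1 CPM. B4galt7, B3galt6 and B3gat3, the galactosyl- and glucuronyltransferases that complete the linker, had line means of 22.5 to 25.6, 7.08 to 13.0 and 22.9 to 34.9 CPM. None of these 4 passed in any comparison. In MeVa2.2.dOVA against MeVa2.2 the 95% interval of the log2 difference was -0.46 to 0.53 for Xylt2 and -1.94 to 0.12 for B3galt6. Per kb, Xylt1 was under Xylt2 in every line by mean: in MeVa2.2 they stood at 0.657 and 3.47 CPM per kb.

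Of the EXT and EXT-like genes, which elongate or regulate the chain, Ext1 and Extl2 differed between the dOVA lines in opposite directions. Ext1, a subunit of the polymerase, was at 127, 93.5 and 92.7 CPM in MeVa2.1.dOVA and at 62.5, 61.6 and 69.0 CPM in MeVa2.2.dOVA. MeVa2.1 had 95.1, 90.0 and 75.1 CPM and MeVa2.2 95.5, 56.5 and 72.1 CPM, which overlapped. Ext1 was lower in MeVa2.2.dOVA than in MeVa2.1.dOVA (-0.73, SE 0.20, edgeR adjusted p = 0.0405). The call ended without library 1 or 2 of MeVa2.1, library 1 or 3 of MeVa2.1.dOVA or any 1 of the MeVa2.2.dOVA libraries (adjusted p from 0.0511 to 0.161), and with no filter on low counts (0.065).

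Extl2, an EXT-like transferase that adds a sugar to the linker, was at 27.8, 24.2 and 28.0 CPM in MeVa2.1.dOVA and at 57.4, 63.8 and 33.5 CPM in MeVa2.2.dOVA. In the parents it was at 34.1, 28.2 and 35.7 CPM (MeVa2.1) and 36.3, 38.8 and 37.8 CPM (MeVa2.2). The dOVA lines did not overlap, and library 3 of MeVa2.2.dOVA stood nearest to MeVa2.1.dOVA. Extl2 was higher in MeVa2.2.dOVA than in MeVa2.1.dOVA (0.93, SE 0.24, edgeR adjusted p = 0.0274), a call that ended without any 1 of the MeVa2.1.dOVA libraries or library 1 or 2 of MeVa2.2.dOVA (adjusted p from 0.0693 to 0.125) and without both libraries that lay apart (0.0746).

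Ext2, the other subunit of the polymerase, had line means of 105 to 159 CPM, Extl3 of 104 to 147 CPM and Extl1 of 0.880 to 3.47 CPM. Extl3 differed by -0.50 (SE 0.16) between the dOVA lines, with an edgeR adjusted p of 0.0714, or 0.0265 with the replicate block. Extl1 varied within MeVa2.2 from 0 to 6.81 CPM. Ext2 overlaps Alx4 on the other strand.

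The enzymes that start chain modification passed in no comparison. Ndst1, the main N-deacetylase/N-sulfotransferase here, had line means of 323 and 344 CPM in MeVa2.1 and MeVa2.2, and of 333 and 355 CPM in their dOVA lines. Its log2 difference was 0.02 in MeVa2.2.dOVA against MeVa2.2, with a 95% interval from -0.34 to 0.39. It overlaps Rps14 on the other strand. Ndst2 had line means of 24.8 to 29.7 CPM and Ndst3 of 29.7 to 71.5 CPM, and Ndst3 varied in MeVa2.2 from 34.7 to 115 CPM. Glce, the epimerase that turns glucuronic into iduronic acid, was at 286, 332 and 68.1 CPM in MeVa2.2, and between 216 and 347 CPM in the other 9 libraries. Library 3 of MeVa2.2 alone was low.

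The largest difference in the list between origins was in Hs6st2, a 6-O-sulfotransferase, which adds the sulfate that Sulf1 and Sulf2 remove. It was at 0.594, 0.312 and 0.870 CPM in MeVa2.1 and 0.247, 0.0574 and 0.259 CPM in MeVa2.1.dOVA. MeVa2.2 had 16.6, 19.1 and 13.7 CPM and MeVa2.2.dOVA 10.4, 9.22 and 6.12 CPM. Every library of MeVa2.2 origin lay above every library of MeVa2.1 origin, and each dOVA line lay under its parent. Hs6st2 was higher in MeVa2.2 than in MeVa2.1 (4.75, SE 0.46, edgeR adjusted p = 0.000172) and in MeVa2.2.dOVA than in MeVa2.1.dOVA (5.39, SE 0.50, adjusted p = 7.76e-05). Both calls were kept when each of the 12 libraries was left out in turn (highest adjusted p 0.00194 and 0.000767). The dOVA differences were -1.60 (SE 0.50) in the MeVa2.1 lines and -0.96 (SE 0.38, adjusted p = 0.24) in the MeVa2.2 lines.

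Hs6st1, the other 6-O-sulfotransferase in the list, stayed the more abundant per kb: Hs6st2 made up 12.3% of the pair in MeVa2.2, 7.32% in MeVa2.2.dOVA, 0.73% in MeVa2.1 and 0.341% in MeVa2.1.dOVA. Hs6st1 was at 88.3, 45.0 and 49.8 CPM in MeVa2.1, 48.4, 30.4 and 34.6 CPM in MeVa2.1.dOVA, 104, 58.6 and 113 CPM in MeVa2.2 and 103, 53.3 and 95.9 CPM in MeVa2.2.dOVA. The dOVA lines did not overlap. They differed by 1.11 (SE 0.33) with an edgeR adjusted p of 0.0528, or 0.00401 with the replicate block. It passed without library 1 of MeVa2.1, library 2 of MeVa2.2 or library 2 of MeVa2.2.dOVA (adjusted p from 0.0389 to 0.0442). Hs2st1, the 2-O-sulfotransferase, had line means of 122 to 176 CPM and passed in no comparison. Hs6st2, Gpc4 and Gpc3 lie near each other on chromosome X (GRCm38, GENCODE M21: 51387212 to 51681856, 52053021 to 52165252 and 52272426 to 52613950). Gpc4 differed by 0.03 (SE 0.30, edgeR adjusted p = 0.974) between the parents and by 0.61 (SE 0.30, edgeR adjusted p = 0.224) between the dOVA lines. Gpc3 was at most 0.0592 CPM and did not enter the fit. Whether position has a part in the Hs6st2 difference was not tested.

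Other genes of the pathway were taken as 8 lists. For reference, 1.99% of all genes passed in MeVa2.2.dOVA against MeVa2.2, 4.48% between the parents and 11.3% between the dOVA lines. With the replicate block 9.51% passed between the parents and 22% between the dOVA lines. Of 9 further heparan sulfate enzymes 3 were tested. Among them Hs3st5, a 3-O-sulfotransferase, was higher in MeVa2.2 than in MeVa2.1 (75 reads against 1, a ratio of 88.5 with a 95% exact counting interval from 15.4 to 3.54e+03, edgeR adjusted p = 0.0124). It was also higher in MeVa2.2.dOVA than in MeVa2.1.dOVA (123 reads against 0, at least 39.5-fold, adjusted p = 0.00298). Pxylp1, a phosphatase acting on the linker xylose, was lower in MeVa2.2.dOVA than in MeVa2.1.dOVA (-1.69, SE 0.33, adjusted p = 0.00693). None of the 3 passed in MeVa2.2.dOVA against MeVa2.2 in edgeR or DESeq2, nor at an unadjusted p of 0.05. With the replicate block 2 of the 3, not 1, passed between the parents. In the 2 dOVA comparisons the medians were -0.51 and -0.21 against 0.00 and -0.02 over all genes.

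Sugar and sulfate donor supply held 14 genes, of which 12 were tested. Slc35b3, a transporter of the sulfate donor PAPS into the Golgi, fell in MeVa2.2.dOVA against its parent (-0.80, SE 0.18, edgeR adjusted p = 0.0495) and was the 1 gene of the 12 to pass there. Papss2, a PAPS synthase, was lower in MeVa2.2 than in MeVa2.1 (-2.24, SE 0.47, adjusted p = 0.0222). Ugdh, which makes the glucuronic acid donor, was lower in MeVa2.2.dOVA than in MeVa2.1.dOVA (-1.25, SE 0.33, adjusted p = 0.0326). Each was the 1 gene of the list to pass in its comparison, where with the replicate block 2 and 4 passed. Of the 10 genes of lysosomal heparan sulfate degradation, all tested, 0 passed in any of the 5 comparisons in edgeR or DESeq2, and 1 had an unadjusted p under 0.05 in edgeR, in MeVa2.2.dOVA against MeVa2.2. Their medians were -0.42 and -0.22 in the 2 dOVA comparisons.

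Core protein release (6 genes, all tested) had Notum, a secreted esterase that removes the lipid from Wnt proteins and binds glypicans, and Timp3, an inhibitor of sheddases, lower in MeVa2.2.dOVA than in MeVa2.1.dOVA (-4.71, SE 0.98, and -2.71, SE 0.56; edgeR adjusted p = 0.0106 and 0.0104). In MeVa2.2.dOVA against MeVa2.2, 0 of the 6 passed in edgeR, 4 had an unadjusted p under 0.05 and 2, again Notum and Timp3, passed in DESeq2; the list's median was -1.25. Of 8 other core proteins that can carry heparan sulfate 4 were tested, and Nrp1 was higher in MeVa2.2.dOVA than in MeVa2.1.dOVA (121 ± 68.1 against 30.1 ± 7.20 CPM, SD, n = 3, edgeR adjusted p = 0.0206). In the chondroitin and dermatan sulfate arm (14 of 16 tested), Ust, a 2-O-sulfotransferase, was lower in both MeVa2.2 lines than in their counterparts (-2.13, SE 0.33, adjusted p = 0.0039, and -2.31, SE 0.33, adjusted p = 0.00121). Chst7, a 6-O-sulfotransferase of that arm, was higher in MeVa2.2 than in MeVa2.1 (2.45, SE 0.52, adjusted p = 0.0222) and lower in MeVa2.2.dOVA than in MeVa2.1.dOVA (-1.89, SE 0.48, adjusted p = 0.0286). It was at 0.594, 0.573 and 0.168 CPM in MeVa2.1 and 3.28, 5.11 and 4.52 CPM in MeVa2.1.dOVA.

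Of the heparan sulfate-binding growth factors 18 of 21 were tested. In MeVa2.2.dOVA against MeVa2.2, 0 passed in edgeR, 5 had an unadjusted p under 0.05 and 1, Wnt5a, passed in DESeq2. In MeVa2.2 against MeVa2.1, 1 was higher (Wnt5a, 3.94, SE 0.65, edgeR adjusted p = 0.00558) and 2 were lower (Pdgfb, -3.10, SE 0.78, adjusted p = 0.0463, and Fgf7, -1.58, SE 0.30, adjusted p = 0.013), and with the replicate block 6 passed. In MeVa2.2.dOVA against MeVa2.1.dOVA, where 11.3% of all genes passed, 2 were higher and 6 lower. Of these Fgf5 had 0 reads against 70 (at least 24.2-fold lower, adjusted p = 0.0185), and Fgf10 had 3 against 163 (56.4-fold lower, 95% exact counting interval 19 to 276, adjusted p = 0.00744). Pdgfb was lower (-4.59, SE 0.88, adjusted p = 0.00666) and Cxcl12 higher (30.2 ± 5.07 against 3.72 ± 2.14 CPM, SD, n = 3, edgeR adjusted p = 0.00762). The median of the list was -0.03 there, against -0.01 over all genes. Of the fibroblast growth factor receptors 3 of 5 were tested. In edgeR 0 passed in any comparison. In MeVa2.2 against MeVa2.1, 1 was under an unadjusted p of 0.05 and 1 passed with the replicate block, and DESeq2 called Fgfr2 there.

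Markers of other cell types were measured beside these results. The 13 immune markers summed to 1.47 to 6.43 CPM in a library, with Cd3e, Cd4, Cd8a, Ms4a1 and Nkg7 among those at 0 in every library. The 8 endothelial markers summed to 0.427 to 3.33 CPM, with Tie1 and Cldn5 at 0, and the 8 keratinocyte markers to 1.58 to 3.52 CPM, with Krt1 at 0. The 7 Schwann and neural markers summed to 2.40 to 12.5 CPM.

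Fibroblast markers were present throughout, mainly as collagens. The 10 genes summed to 2690 to 4400 CPM in MeVa2.1, 2200 to 4720 in MeVa2.1.dOVA, 2890 to 6420 in MeVa2.2 and 1620 to 6280 in MeVa2.2.dOVA, ranges that overlapped. None of the 10 was at 0 in a whole line. The median log2 fold change of the 10 was -1.74 in MeVa2.1.dOVA against MeVa2.1 and -1.60 in MeVa2.2.dOVA against MeVa2.2, against 0.00 and -0.02 over all genes and -0.34 and -0.24 over the 29 heparan sulfate genes. In MeVa2.1.dOVA against MeVa2.1, 1 of the 10 was past the threshold in the main fit and 4 with the replicate block, all lower. In MeVa2.2.dOVA against MeVa2.2 these counts were 3 and 4, all lower. Of all 13985 genes, 68 and 278 passed in the main fit in this order, and 364 and 1084 with the block. The 3 that passed in the main fit of MeVa2.2.dOVA against MeVa2.2 moved with the fall of Hpse, Sulf1 and Sdc3. They were Thy1 (-6.49, SE 1.09, edgeR adjusted p = 0.0178), Pdgfra (-2.61, SE 0.59, adjusted p = 0.0483) and Dcn (-2.49, SE 0.42, adjusted p = 0.0178). Dcn differed by -2.32 (SE 0.39) in MeVa2.1.dOVA against MeVa2.1. The melanocyte markers were also lower by median in MeVa2.2.dOVA against MeVa2.2 (-3.38). Of the 5 tested, 0 were past the threshold in edgeR, 3 were with the replicate block, 3 had an unadjusted p under 0.05 and 1 passed in DESeq2. In MeVa2.1.dOVA against MeVa2.1 their median was -0.16. The part of these markers in the results on the heparan sulfate genes was not tested.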

How the data were processed

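Libraries of untreated cells were made with a stranded poly(A) kit, per the labels' protocols. Each deposited file gives raw counts of reads by gene as whole numbers. STAR 2.6.0c, HTSeq 0.10.0, DESeq2 1.30.1 and GRCm38 were used, per the submitters' processing notes. Whether counting used strand is not given in the sources used here. Samples were grouped by title. The 5 tally lines of each file (unassigned reads) were left out. CPM was computed over all gene counts, and per kb of exon from GENCODE M21.

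Counts were fitted with edgeR 4.0.16 (R 4.3.3): filterByExpr kept 13985 genes, libraries were scaled by TMM, and glmQLFit was run over all 12 libraries with 1 mean per line. Tests used glmQLFTest, adjusted by Benjamini-Hochberg over all 13985 genes. A fold change's standard error is the one implied by its F statistic. There were 5 comparisons: the dOVA effect in each origin, the origins compared among parents and among dOVA lines, and the 2 dOVA effects compared. The 2 dOVA effects share no library with each other, and neither do the 2 comparisons between origins. All other pairs of comparisons share libraries. The fit was run on simulated counts with 200 genes changed in 1 line. These had a lower dispersion than the 0.121 fitted here and no correlation between libraries of the same number. The simulation therefore does not cover noise like that of these data. Alternatives were DESeq2 1.42.0, its size factors in edgeR, no filter, a replicate block, the lines compared only and each library left out in turn.

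The members and the 14 other gene lists (8 of the pathway, 6 of cell type markers) were chosen with earlier results of these data known. A member was given library by library if it passed in any comparison, or if the libraries of 2 lines did not overlap with at least a 2-fold fitted change; list genes were named if they passed, at most 4 per list and comparison.

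Deviations from the line mean correlated between libraries of the same number at 0.503, 0.488 and 0.534 (MeVa2.1.dOVA with MeVa2.1). They correlated at 0.429, 0.405 and 0.328 for MeVa2.2 with MeVa2.1, and at 0.105, 0.516 and 0.416 for the dOVA lines. All were over 0.1, so in these comparisons the fit with the replicate block is given beside the main fit. The main fit left this pairing out, and SEs and p-values come from it unless another fit is named. The pairing comes from these values, and no label states it. For MeVa2.2.dOVA with MeVa2.2 the correlations were 0.0815, 0.640 and 0.521 in library order. As the first was under 0.1, the block is given there only as an alternative. The limit of 0.1 thus lay between 0.0815 and 0.105. Between the dOVA lines, library 1 of MeVa2.1.dOVA correlated more with library 3 of MeVa2.2.dOVA (0.315) than with library 1 (0.105).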

Additional observations from a re-analysis of the deposited data

How the results depend on the processing

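Of the 15 genes given library by library, fold changes that passed kept their direction under each alternative run, while 18 alternative values, none past the threshold in either fit, changed sign. Leaving out 1 library, log2 values ran from -0.20 to 0.29 for Hspg2 in MeVa2.1.dOVA against MeVa2.1, and from -0.39 to 0.08 for Hs6st1 and -0.36 to 0.38 for Sdc4 in MeVa2.2.dOVA against MeVa2.2. For the difference between the dOVA differences they ran from -0.16 to 0.38 for Sdc1, -1.90 to 0.04 for Sulf1, -0.33 to 0.04 for Sulf2 and -0.88 to 3.01 for Xylt1. Those of Xylt1 between the dOVA lines, 0.00 to 3.91, rest on 0 to 3 reads and the prior count. Without both libraries that lay apart Hspg2 was at -0.20 and Xylt1 (difference of differences) at 0.33. The latter was 0.42 in DESeq2 and 0.46 with the replicate block, and Sdc4 -0.02 with that block. With DESeq2, 4, 6 and 7 of the heparan sulfate genes passed in MeVa2.1.dOVA against MeVa2.1, MeVa2.2.dOVA against MeVa2.2 and MeVa2.2 against MeVa2.1 (2, 3 and 4 in edgeR). With no filter on low counts 5 passed in the first. With the fit on the lines compared only, 1, 0, 2 and 4 passed in these 3 and in MeVa2.2.dOVA against MeVa2.1.dOVA (9 with all lines). Leaving out 1 library gave 0 to 3, 0 to 4, 1 to 5 and 2 to 10 in this order, and 0 in each case for the difference between the dOVA differences. Without both libraries that lay apart, a choice made after seeing the data, 0, 5 and 2 passed in the first 3. Over all genes, calls in the same 4 comparisons were 68, 278, 627 and 1574 in edgeR, 394, 974, 1207 and 2428 in DESeq2, and 25, 5, 397 and 1025 with the lines compared only. With no filter they were 272, 729 and 969 in the first 3, and without both libraries that lay apart 2 and 693 in the first 2. For the difference of differences they were 12 in edgeR, 272 in DESeq2 and 161 with no filter. With the replicate block, MeVa2.2.dOVA against MeVa2.2 had 6 heparan sulfate genes (adding Sulf2, Sdc2 and Xylt1) and 1084 of all genes. There, and also between the dOVA lines, not every library correlated best with the library of its own number. The block gave 364, 1330 and 3079 of all genes in the other 3 and 118 for the difference of differences. The causes were not tested. Fewer samples were left when libraries were omitted. Genes under about 3 reads per line, such as Xylt1 in the dOVA lines, are limited by depth: 3 reads were 0.0842 to 0.185 CPM in a library.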
